A study of Mus musculus with 8 samples.

Results

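The costimulatory receptors Cd28 and Icos, the inhibitory receptors Ctla4, Pdcd1, Lag3, Havcr2 and Cd160, and the transcription factor Tox were followed through T cell activation in Gfi1-knockout and wild-type mice. All probe sets annotated to one of these 8 genes were taken, 13 of the 22626 non-control probe sets on the array, and 12 of them exceeded the background floor on at least 2 arrays. The 8 genes are among 12393 genes with a probe set of their own. RNA was measured on 8 Affymetrix MOE430A_2.0 arrays, 1 for each genotype at 0, 4, 8 and 24 h. The mice were C57Bl/6, either Gfi1-knockout or wild-type, and a pan-T kit on an AutoMACS magnetic sorter gave the splenic T cells. The 0 h cells were untreated, and the others were cultured with antibodies against CD3 and CD28 at 2 µg/ml. The study asked how T cells with and without Gfi1, a zinc finger repressor, differ in their activation.

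Each of the 8 groups is 1 array, and the sample titles carry a single source number per genotype, so the 4 times of a genotype may share an animal or a pool. The labels do not say how Gfi1 was deleted, in which cells, or at what age the mice were used. No array holds cells cultured without the antibodies, so stimulation and time in culture cannot be told apart. The genotype comparison has no replicate, and it is given by size with no p-value.

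T cells need a signal from the antigen receptor and a second one from costimulatory receptors, of which CD28 is the main one on resting cells. ICOS is a relative of CD28 that appears after activation. CTLA-4 competes with CD28 for the ligands CD80 and CD86, and PD-1 (gene Pdcd1) recruits phosphatases to the activated receptor. LAG-3 binds class II MHC molecules, TIM-3 (gene Havcr2) is carried by effector T cells and by myeloid cells, and CD160 binds the herpesvirus entry mediator. TOX is an HMG-box factor needed for CD4 T cell development in the thymus and is known for its high level in chronically stimulated T cells.

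Signals are deposited on a linear scale, and values under a floor of 141.88 were set to the floor before log2 was taken. Between 56.5% and 61.5% of probe sets exceeded it on each array. Gfi1 itself gave 2316, 5979, 6459 and 9885 in the knockout-labelled arrays at 0, 4, 8 and 24 h and 882, 6359, 5259 and 3966 in the wild-type-labelled ones. It was higher under the knockout label at 0, 8 and 24 h and nearly equal at 4 h, which goes against the label if the probe set lies in the deleted part. No source used here says where it lies, so the arrays are named by their labels throughout and every genotype direction rests on those labels. All 11 T cell markers on the array were above the floor on every array. Their summed signal was 23508 to 56337 in the knockout-labelled arrays and 60495 to 85921 in the wild-type-labelled ones. The median knockout-minus-wild-type difference of these 11 was -1.67, -1.62, -1.42 and -0.25 on the log2 scale at 0, 4, 8 and 24 h. Of 17 monocyte and macrophage markers the summed signal was 32256 to 80556 against 4644 to 19065, and of 13 granulocyte markers 6688 to 177056 against 1006 to 16918. At most 3 of these 17 and 3 of these 13 were at the floor on any knockout-labelled array, against 11 and 12 on the wild-type-labelled 24 h array. In these bulk samples fewer cells of a type and less RNA per cell cannot be told apart.

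**Figure D1:**
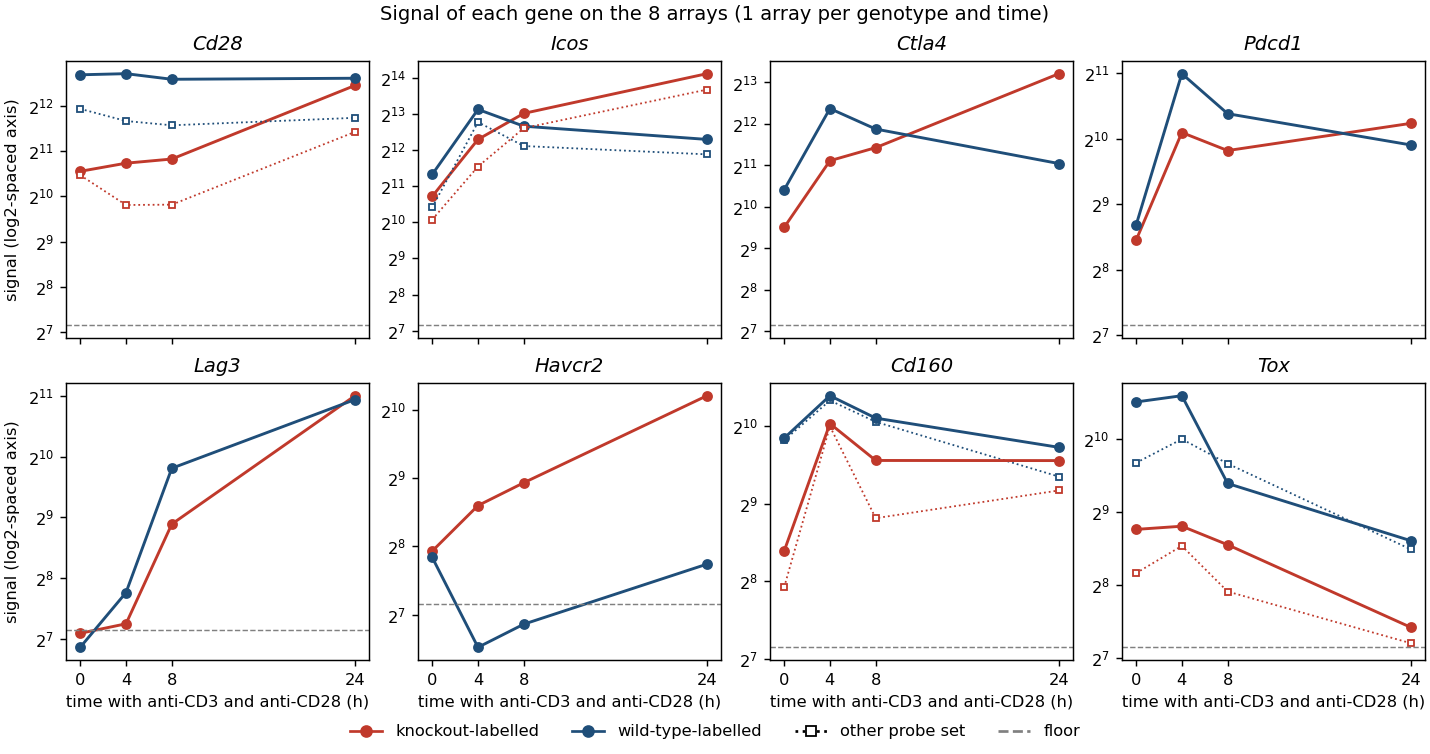
Signal of each gene (log2-spaced vertical axis, a separate scale per panel) against hours with anti-CD3 and anti-CD28, 1 array per point, with knockout-labelled arrays in red and wild-type-labelled ones in blue. Filled circles are the probe set with the highest mean, open squares the second one where it passed the filter, and the dashed line is the floor of 141.88; Cd28 stays between 6169 and 6724 in blue, while Icos, Ctla4 and Havcr2 end highest in red.

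Cd28 was low in the knockout-labelled arrays until 8 h and close to wild type at 24 h. Its signal there was 1504, 1704, 1816 and 5612 at 0, 4, 8 and 24 h. Wild-type-labelled arrays gave 6607, 6724, 6169 and 6268. The wild-type-labelled values lay within a narrow band, and all 4 were above all 4 knockout-labelled ones. The wild-type-labelled signal was 4.39, 3.95 and 3.40 times the knockout-labelled one at 0, 4 and 8 h and 1.12 times at 24 h. In its second probe set, with 1419, 897, 902 and 2753 against 3920, 3253, 3046 and 3416, the genotypes did not overlap either. The share of all genes that separate the genotypes this way was not counted. T cell markers moved between the same arrays. Relative to their median difference at the same time, Cd28 differed by -0.46, -0.36, -0.34 and 0.09 on the log2 scale. The part of the T cell markers in the Cd28 difference was not tested beyond this subtraction.

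Icos had opposite orders at 4 and 24 h. Its signal was 1681, 5017, 8267 and 17714 at 0, 4, 8 and 24 h in the knockout-labelled arrays and 2562, 8922, 6466 and 5017 in the wild-type-labelled ones. The wild-type-labelled series was highest at 4 h and lower at each later time, whereas the knockout-labelled series was higher at each later time. At 24 h the knockout-labelled signal was 10.5 times its 0 h value and the wild-type-labelled one 1.96 times. The genotypes differed by -0.61, -0.83, 0.35 and 1.82 on the log2 scale, the last a 3.53-fold higher signal in the knockout-labelled array. The second probe set gave -0.34, -1.23, 0.50 and 1.79.

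Ctla4 took a course similar to that of Icos, except for the order of the genotypes at 8 h. It gave 728, 2217, 2759 and 9493 in the knockout-labelled arrays and 1362, 5299, 3763 and 2114 in the wild-type-labelled ones. The wild-type-labelled array was the higher one at 0, 4 and 8 h, by 1.87, 2.39 and 1.36 times, and the knockout-labelled array was 4.49 times the other at 24 h. From 4 to 24 h the log2 difference was 2.10 within the knockout-labelled and -1.33 within the wild-type-labelled arrays. Ctla4 is also abundant in regulatory T cells. The summed signal of 10 regulatory T cell markers was 7363, 16179, 22434 and 41090 in the knockout-labelled arrays and 9928, 27615, 27327 and 31535 in the wild-type-labelled ones. Foxp3, the factor that defines these cells, read 125.5, 400, 290 and 365 under the knockout label at 0, 4, 8 and 24 h. Under the wild-type label it read 229, 400, 448 and 135. The values 125.5 and 135 were under the floor. At 24 h the markers Gpr83 and Izumo1r went the opposite way, with 169 (knockout-labelled) against 442 and 845 against 2233. Of the 10 markers, 3 were at least 2-fold higher and 2 at least 2-fold lower under the knockout label at 24 h. Several of these markers, such as the interleukin receptor chain Il2ra, are also made by other activated T cells, and the part of regulatory T cells in the Ctla4 difference was not tested.

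Cd28, Ctla4 and Icos lie next to each other in this order on chromosome 1, with no other protein-coding gene between them in the GRCm38.p6 annotation. Over the 8 arrays the log2 signals of Icos and Ctla4 correlated at r = 0.97, those of Cd28 and Ctla4 at r = 0.49 and those of Cd28 and Icos at r = 0.34. These are descriptions over arrays that share genotypes and times. Promoter windows from RefSeq (GRCm38.p6, 250 bases before to 50 after the start) were found for 4 of the 8 genes. They are shown for Ctla4, Pdcd1 and Havcr2, whose courses over time differed most plainly: highest late in the knockout-labelled arrays, high early in both genotypes, and above 0 h after stimulation in the knockout-labelled arrays but not in the others. Capitals mark matches on either strand to the NFAT core GGAAA and to the AP-1 site TGANTCA, the motifs of factors that the antigen receptor switches on. The windows are chr1:60908775-60909074 (+) for Ctla4, chr1:94052504-94052803 (-) for Pdcd1 and chr11:46454681-46454980 (+) for Havcr2.
Ctla4: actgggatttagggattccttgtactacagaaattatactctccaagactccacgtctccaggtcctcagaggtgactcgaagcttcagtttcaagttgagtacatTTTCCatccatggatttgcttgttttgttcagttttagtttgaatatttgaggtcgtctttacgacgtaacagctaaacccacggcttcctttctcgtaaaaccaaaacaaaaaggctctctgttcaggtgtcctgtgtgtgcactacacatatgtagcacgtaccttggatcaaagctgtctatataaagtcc
Pdcd1: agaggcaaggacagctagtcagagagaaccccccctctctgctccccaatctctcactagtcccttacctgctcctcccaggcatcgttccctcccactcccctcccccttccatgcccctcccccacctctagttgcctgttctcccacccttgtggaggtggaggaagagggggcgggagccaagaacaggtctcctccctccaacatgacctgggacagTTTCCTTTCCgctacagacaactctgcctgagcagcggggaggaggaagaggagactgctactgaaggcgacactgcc
Havcr2: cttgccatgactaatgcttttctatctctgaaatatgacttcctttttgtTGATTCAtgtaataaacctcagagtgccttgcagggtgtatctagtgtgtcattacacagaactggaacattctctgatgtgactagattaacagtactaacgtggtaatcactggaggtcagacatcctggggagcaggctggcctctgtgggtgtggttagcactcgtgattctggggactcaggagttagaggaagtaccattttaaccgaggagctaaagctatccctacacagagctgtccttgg
Ctla4 holds 1 NFAT core, at base -144 from the start site, and Pdcd1 holds 2, side by side at bases -28 and -23. No NFAT core was found in the Havcr2 window, which holds the 1 AP-1 match of the 3 windows, at base -200. Of all 32851 promoter windows of this length 61.3% hold the NFAT core and 7.81% the AP-1 site. AATC, the core of the Gfi1 site, has 3 matches in Ctla4, 1 in Pdcd1 and 4 in Havcr2, with 73.1% of all windows holding at least 1. A Gfi1 core match in Havcr2 overlaps the AP-1 match. These matches are letters in a window and describe no binding.

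Pdcd1 was at its highest at 4 h in the wild-type-labelled arrays. Its signal was 349, 1092, 902 and 1203 in the knockout-labelled arrays and 409, 2036, 1332 and 957 in the wild-type-labelled ones. Every stimulated array was above both 0 h arrays. At 4 h the signal was 3.13 times that at 0 h in the knockout-labelled and 4.98 times in the wild-type-labelled array. The genotypes differed by less than 2-fold at each time, with log2 differences of -0.23, -0.90, -0.56 and 0.33. Scaling the arrays to equal medians made the 4 h difference -1.04, past 2-fold.

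Lag3 was under the floor at 0 h and highest at 24 h in both genotypes. It gave 136, 152, 474 and 2054 in the knockout-labelled arrays and 116, 217, 897 and 1965 in the wild-type-labelled ones, so that both 0 h values were under the floor. The 24 h values were the highest in each genotype, and they differed by 1.05-fold. At 24 h the signal was at least 14.5-fold and at least 13.8-fold above the floor value set at 0 h. At 4 and 8 h the wild-type-labelled array was 1.43 and 1.89 times the knockout-labelled one. The 24 h log2 difference of 0.06 turned to -0.21 on arrays scaled to equal medians.

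Havcr2 was higher in the knockout-labelled arrays after stimulation. Its signal was 244, 387, 488 and 1181 there. Wild-type-labelled arrays gave 229, 91.8, 116 and 214, of which the 4 and 8 h values were under the floor. The lowest knockout-labelled value, 244, and the highest wild-type-labelled one, 229, were both those at 0 h and nearly equal. How many of all genes separate the genotypes this way was not counted. The knockout-labelled signal was at least 2.73-fold higher at 4 h, at least 3.44-fold at 8 h and 5.53-fold at 24 h. Markers of monocytes were also higher there, with median differences of 1.35, 2.45, 3.17 and 2.11 at 0, 4, 8 and 24 h. Csf1r, the receptor for a macrophage growth factor, gave 5719, 10097, 9723 and 1889 in the knockout-labelled arrays. Cd14, a co-receptor for bacterial lipopolysaccharide, gave 541, 4314, 3590 and 5197 there and 133, 262, 240 and 94.6 in the wild-type-labelled ones. From 8 to 24 h in the knockout-labelled arrays Havcr2 went from 488 to 1181 and the summed signal of the 17 monocyte markers from 80556 to 32256. Markers of that list went both ways, with Csf1r from 9723 to 1889 and Cd14 from 3590 to 5197. The part of monocytes in the Havcr2 difference was not tested.

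Cd160 was lower in the knockout-labelled array before stimulation and close to wild type later. It gave 335, 1045, 752 and 751 in the knockout-labelled arrays and 917, 1341, 1098 and 845 in the wild-type-labelled ones. The knockout-labelled 0 h array stood apart as the lowest of the 8, and the wild-type-labelled array was higher at every time. That ratio was 2.74 at 0 h and 1.28, 1.46 and 1.13 at 4, 8 and 24 h. A second probe set gave 242, 1020, 449 and 575 against 900, 1285, 1062 and 651, with a ratio of 2.36 at 8 h. The remaining probe set was under the floor on all 8 arrays. CD160 is carried by subsets of CD8 T cells and natural killer cells. Cd8a gave 1715, 1238, 1701 and 6781 in the knockout-labelled arrays and 8172, 6199, 5182 and 7650 in the wild-type-labelled ones. Of the 8 natural killer markers on the array, Ncr1 was under the floor on all 8 arrays, while 5 to 7 exceeded it on each array. Their summed signal was 4240 to 8187 in the knockout-labelled arrays against 2730 to 12299. The part of these cells in the Cd160 values was not tested.

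Tox was lower in the knockout-labelled arrays at all 4 times and was lowest at 24 h in both genotypes. The probe set with the higher mean gave 435, 449, 376 and 172 in the knockout-labelled arrays and 1461, 1551, 673 and 391 in the wild-type-labelled ones. The wild-type-labelled signal was 3.36, 3.46, 1.79 and 2.28 times the knockout-labelled one. The other probe set gave 287, 372, 241 and 148 against 819, 1027, 813 and 360, lower by 2-fold or more at each time. Its log2 difference averaged -1.50 (SD over the 4 times 0.19). The wild-type-labelled 24 h value lay below the knockout-labelled 0 and 4 h values in the first probe set. In the second it lay below the knockout-labelled 4 h value, so the groups overlapped in both. Relative to the median of the T cell markers the first probe set differed by -0.07, -0.17, 0.58 and -0.94. The HMG-box relative Tox4 differed between genotypes by a mean of -0.10 (SD over the 4 times 0.17) and did not keep 1 order over time.

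**Figure D2:**
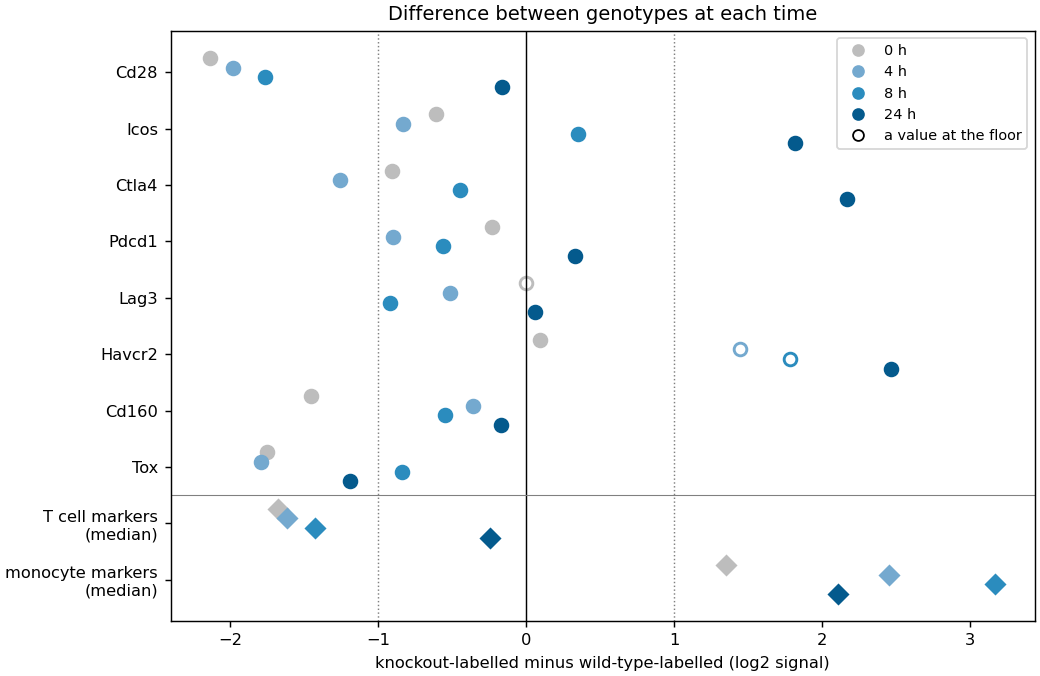
Knockout-labelled minus wild-type-labelled log2 signal of each gene at 0, 4, 8 and 24 h (1 array per genotype and time, darker for later times), with open circles where a value was at the floor and diamonds for the medians of 11 T cell and 17 monocyte markers; dotted lines mark 2-fold. Cd28 goes from -2.14 at 0 h to -0.16 at 24 h, and Icos, Ctla4 and Havcr2 stand at 1.82, 2.17 and 2.47 at 24 h.

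Between genotypes, the counts of the 8 genes turned from mainly lower to mainly higher by 24 h. At 0 h Cd28, Cd160 and Tox were lower under the knockout label by 2-fold or more, as were 6.75% of all 8457 genes tested, and none was at least 2-fold higher, against 8.08% of all genes. At 4 h Cd28, Ctla4 and Tox were lower (6.56% of all genes) and Havcr2 was higher (11.8%). At 8 h Cd28 was lower (6.66%) and Havcr2 higher (10.7%). At 24 h Icos, Ctla4 and Havcr2 were higher (9.18%) and Tox was lower (5.06%). The median difference of the 8 genes was -0.76, -0.86, -0.55 and 0.20 at the 4 times, beside 0.00, 0.00, -0.08 and 0.00 for all genes. By their first probe sets none of the 8 was at least 2-fold apart in the same direction at all 4 times, a rule met by 1.86% of all genes as higher and 0.166% as lower. Over 0, 4 and 8 h alone Cd28 met it as lower, as did 1.34% of all genes, and none of the 8 as higher, against 4.11%. When the arrays were scaled to equal medians, the median difference of all probe sets came to -0.15, -0.16 and -0.19 at 4, 8 and 24 h. Before that shift is taken off, the 24 h differences of Icos, Ctla4 and Havcr2 were 1.54, 1.89 and 2.19 on that scale.

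**Figure D3:**
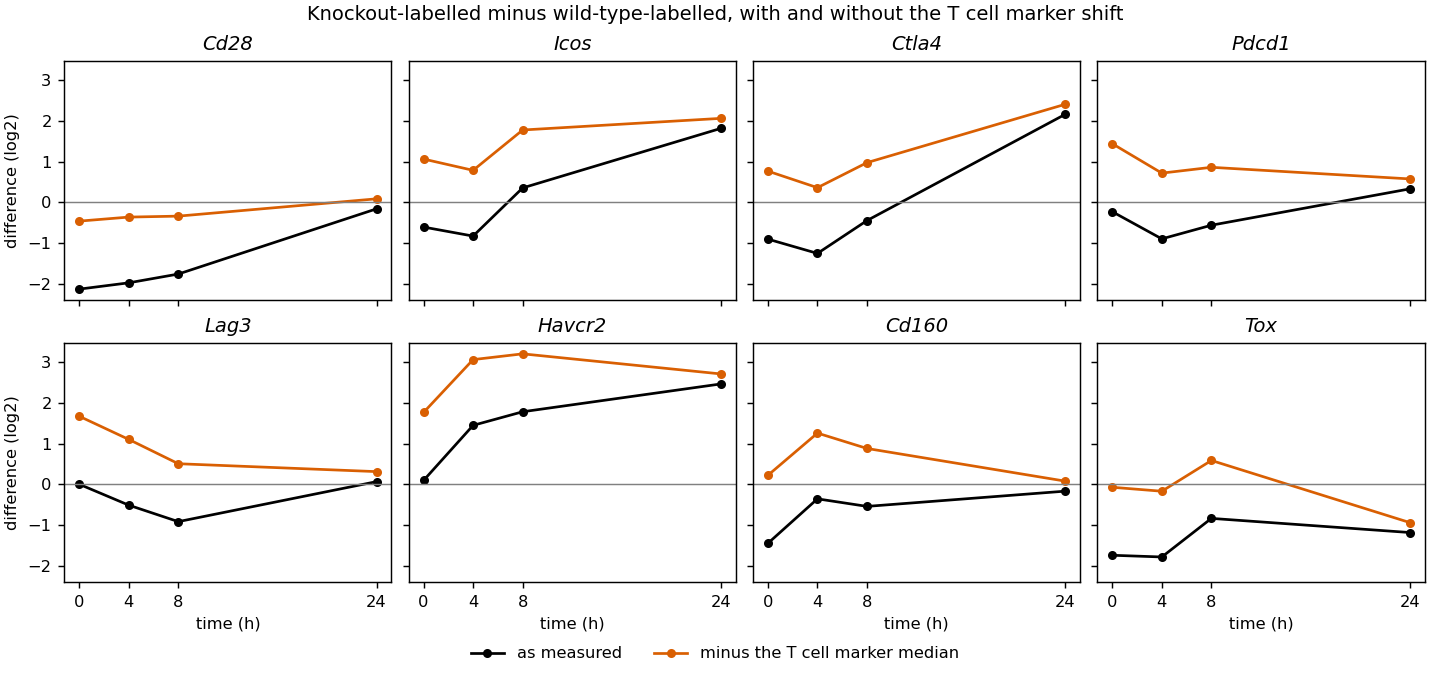
Knockout-labelled minus wild-type-labelled log2 signal of each gene against time (black) and the same after subtracting the median difference of 11 T cell markers at that time (orange), 1 array per genotype and time. Subtraction brings Cd28 to between -0.46 and 0.09 and leaves Icos and Ctla4 at 2.07 and 2.41 at 24 h; the values of Lag3 at 0 h and of Havcr2 at 4 and 8 h rest on the floor.

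The T cell markers were lower in the knockout-labelled arrays in the same direction as most of the 8 genes up to 8 h. After subtraction of their median difference, Icos stood at 1.06, 0.79, 1.78 and 2.07 at 0, 4, 8 and 24 h and Ctla4 at 0.77, 0.36, 0.98 and 2.41. Pdcd1 stood at 1.44, 0.72, 0.86 and 0.58. The subtraction adds to every difference by construction, since the T cell median is below 0 at all 4 times. The plot of differences with and without the subtraction shows that the first Tox probe set came closest to 0 at 0 and 4 h. Cd160 stood at 0.22, 1.26, 0.88 and 0.08 after it, above 0 at all 4 times.

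For Ctla4, Icos, Havcr2 and Cd28 the response to stimulation differed most between genotypes at 24 h. The response difference is the knockout-labelled log2 change from 0 h less the wild-type-labelled one. At 24 h it was 3.07 for Ctla4, 2.43 for Icos and 2.38 for Havcr2. These 3 of the 8 genes were past 4-fold in favour of the knockout label, as were 3.62% of all genes, and none was past it the other way, against 2.57%. Over all times and both directions the count was the same 3, against 7.96% of all genes. Cd28 lay just below that limit at 1.98, while quantile normalization gave 2.21, past it, the median over its probe sets 1.57 and its second probe set 1.15. Lag3 differed by 0.06. None was past 4-fold at 4 or 8 h, where 0.875% and 1.8% of all genes were past it as higher and 0.26% and 0.686% as lower. Subtracting the T cell median left Ctla4 at 1.64, Icos at 1.00 and Havcr2 at 0.95, so that none of the 3 stayed past 4-fold. From 4 to 24 h, within which that median also moved, Ctla4 differed between genotypes by 3.42 and Icos by 2.65.

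**Figure D4:**
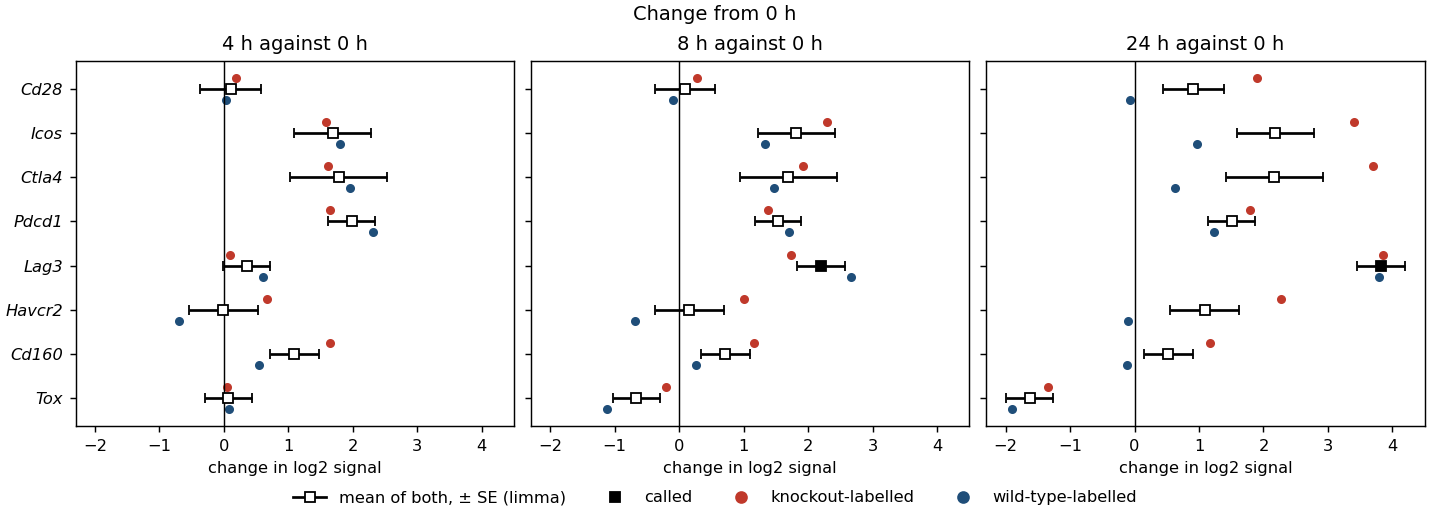
Change in log2 signal from 0 h at 4, 8 and 24 h for each gene, with the mean of both genotypes as squares (bars are ± SE from limma, filled where called), and each genotype's own change as circles (1 array per time, red knockout-labelled, blue wild-type-labelled). Lag3 is the 1 gene called, at 8 and 24 h, and the circles of Icos, Ctla4, Cd28 and Havcr2 lie far apart at 24 h.

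Averaged over both genotypes, Lag3 was the 1 gene of the 8 that passed the test of stimulation. It rose by 2.20 on the log2 scale at 8 h (SE 0.37, limma adjusted p = 0.0389) and by 3.82 at 24 h (SE 0.37, limma adjusted p = 0.00904), in both genotypes. Of all genes 1.18% were called higher at 8 h and 1.49% at 24 h. From 4 to 24 h it rose by 3.47 (SE 0.37, limma adjusted p = 0.0493), where 0.0473% of all genes were called higher. None of the 8 was called lower by limma at 8 h, 24 h or from 4 to 24 h, against 1.25%, 2.48% and 0.0946% of all genes. Both 0 h values were set to the floor, which removes their spread, so the SE and p against 0 h can be too small. Leaving out any 1 of the 6 arrays at 0, 4 or 8 h ended the 8 and 24 h calls, with limma adjusted p between 0.0159 and 0.138 at 24 h over all 8 omissions. Of those 8 omissions, only that of the wild-type-labelled 24 h array kept the call from 4 to 24 h. With no filter on low signals all 3 calls were lost (limma adjusted p = 0.201, 0.104 and 0.280), and with the floor at the 60th percentile the 8 h change was 0.45 (limma adjusted p = 0.447).

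The other 7 did not pass at any time in limma. Pdcd1 was highest among them at 4 h, at 1.98 (SE 0.36, limma adjusted p = 0.0636) and above 0 h in both genotypes, and stood at 1.54 and 1.51 at 8 and 24 h. Icos gave 1.69, 1.82 and 2.18 at 4, 8 and 24 h (limma adjusted p = 0.289, 0.165 and 0.102), and Ctla4 gave 1.78, 1.69 and 2.17 (limma adjusted p = 0.369, 0.274 and 0.166). Both were above their 0 h value in both genotypes at every time. Tox gave -1.62 at 24 h (SE 0.37, limma adjusted p = 0.0646), lower in both genotypes. Cd28 gave 0.10, 0.09 and 0.91, Havcr2 -0.01, 0.16 and 1.09, and Cd160 1.09, 0.71 and 0.52, each with at least 1 time at which the genotypes went opposite ways. At 4 h limma called none of the 8 genes in either direction, against 0.804% of all genes as higher and 0.627% as lower. By an unadjusted p under 0.05 it marked 3 as higher, Icos, Pdcd1 and Cd160, and 0 as lower, against 5.51% and 8.87% of all genes. At 8 h that rule marked 3 as higher (Icos, Pdcd1 and Lag3; 7.27% of all genes) and 0 as lower (12.9%). At 24 h it marked 4 as higher (Icos, Ctla4, Pdcd1 and Lag3; 7.67%) and Tox as lower (14.2%). From 4 to 24 h it marked Lag3 as higher (6.01%) and Tox as lower (6.72%). Without the wild-type-labelled 24 h array, 5 of the 8 passed at 24 h, namely Cd28, Icos, Ctla4, Pdcd1 and Lag3, and without either 24 h array Ctla4 and Pdcd1 passed at 4 h and Icos, Ctla4, Pdcd1 and Lag3 at 8 h. The median change of the 8 genes was 0.72, 1.13 and 1.30 at 4, 8 and 24 h, beside -0.10, -0.11 and -0.08 for all genes.

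The genes most like each of the 8 in their course were taken by Pearson r of the log2 signal over the 8 arrays, given as a description. Cd28 was closest to Cd8a (r = 0.97), the adhesion receptor Cd6 (r = 0.97) and the GTPase Rras2 (r = 0.97). Icos was closest to the integrin chain Itgav (r = 0.98), the costimulatory receptor Tnfrsf9 (r = 0.97) and Ctla4 (r = 0.97), and Ctla4 to Errfi1 (r = 0.98), Icos and Itgav (r = 0.97). Tnfrsf9 gave 567, 2385, 5478 and 18483 in the knockout-labelled arrays and 796, 4115, 5511 and 3711 in the wild-type-labelled ones. It was level between genotypes at 8 h and higher in the knockout-labelled array at 24 h, whereas Icos was already higher there at 8 h. Pdcd1 was closest to the cytokine Lif (r = 0.99), the NF-kB subunit Rel (r = 0.99) and the stress factor Atf3 (r = 0.99). Lag3 was closest to Crabp2 (r = 0.98), Hemk1 (r = 0.95) and Ccdc58 (r = 0.94). Havcr2 was closest to the metalloprotease Adam8 (r = 0.98), the tubulin Tubb6 (r = 0.96) and the lectin receptor Clec4n (r = 0.96). Clec4n gave 269, 722, 1561 and 3541 in the knockout-labelled arrays and 161 at 0 h, then values under the floor, in the wild-type-labelled ones. Cd160 was closest to the RNase Zc3h12a (r = 0.93), Slamf1 and the adaptor Lcp2 (both r = 0.92), and Tox to the sodium pump subunit Atp1b1 (r = 0.93), the exchange factor Rasgrp1 (r = 0.93) and Galnt11 (r = 0.92).

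The ligands of these receptors were measured in the same samples. Of 11 tested, limma called 1 higher at 4 h, 2 at 8 h and 3 at 24 h, against 0.804%, 1.18% and 1.49% of all genes. Cd274, which encodes the PD-1 ligand PD-L1, rose by 4.33 at 4 h (SE 0.40, limma adjusted p = 0.0134) and by 2.42 at 24 h. Its signal was 269, 6001, 3841 and 2569 in the knockout-labelled arrays and 547, 9925, 5592 and 1633 in the wild-type-labelled ones. Pdcd1lg2, the other PD-1 ligand, rose by 2.75 at 24 h (SE 0.35, limma adjusted p = 0.0173), and Lgals3, a galectin, by 1.24 (SE 0.23, limma adjusted p = 0.0402). The list's median was 0.37, 0.06 and -0.46 at 4, 8 and 24 h, so the 3 called genes stood apart from its middle. None was called lower by limma, against 0.627%, 1.25% and 2.48% of all genes. At an unadjusted p under 0.05 in limma 0, 0 and 2 were lower, against 8.87%, 12.9% and 14.2%. Between genotypes Lgals3 had the largest mean difference, 2.32 (SD over the 4 times 0.27, higher at all 4), and the class II gene H2-Eb1, of the LAG-3 ligands, differed by -1.08 (SD 0.76). Lgals3 is also abundant in macrophages, and class II genes in macrophages and B cells. The part of these cells was not tested.

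Among 14 other costimulatory and SLAM-family receptors limma called 2, 2 and 4 higher at 4, 8 and 24 h, against 0.804%, 1.18% and 1.49% of all genes. None was called lower (0.627%, 1.25% and 2.48%), with 2 lower at an unadjusted p under 0.05 at each time (8.87%, 12.9% and 14.2%). Tnfrsf4 rose by 3.72, Tnfrsf9 by 3.62 and Tnfrsf18 by 3.31 at 24 h, with limma adjusted p from 0.00895 to 0.0428. These receptors of the TNF family sustain activated T cells. Slamf1, a self-binding receptor, rose by 2.92 at 4 h (SE 0.33, limma adjusted p = 0.0167). The list's median was 0.41, 0.08 and 0.66. Between genotypes 8, 8, 5 and 0 of the 14 were lower under the knockout label by 2-fold or more at 0, 4, 8 and 24 h, against 6.75%, 6.56%, 6.66% and 5.06% of all genes. At least 2-fold higher were 0, 0, 0 and 1, the last being Tnfrsf9, against 8.08%, 11.8%, 10.7% and 9.18%. The list medians were -1.24, -1.30, -0.62 and -0.20. The largest mean differences were those of the adhesion receptor Cd2 (-1.67, SD over the 4 times 0.93) and Slamf1 (-1.60, SD 0.55). Cd2, Cd5 and Cd6 of this list are also T cell markers.

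Of 12 other inhibitory receptors limma called none higher at 4 h and 1 at 8 and 24 h, against 0.804%, 1.18% and 1.49% of all genes. That gene, Cd200, is a ligand of the inhibitory receptor Cd200r1 and rose by 2.78 at 24 h (SE 0.25, limma adjusted p = 0.00895). None was called lower by limma, against 0.627%, 1.25% and 2.48% of all genes. At an unadjusted p under 0.05 in limma 1, 1 and 2 were higher (5.51%, 7.27% and 7.67%) and 0, 1 and 2 lower (8.87%, 12.9% and 14.2%). The list's median was 0.02, -0.14 and -0.76. Between genotypes 2, 2, 4 and 5 were at least 2-fold higher at 0, 4, 8 and 24 h, against 8.08%, 11.8%, 10.7% and 9.18% of all genes. At least 2-fold lower were 4, 4, 4 and 1, against 6.75%, 6.56%, 6.66% and 5.06%. Entpd1 and Nt5e of this list are surface enzymes and not receptors. They stood at 1.88 and 1.35 at 24 h, among the 5 higher, and at 1.22 and -1.23 at 8 h. The collagen receptor Lair1 (mean 1.85, SD over the 4 times 0.42) and the myeloid receptor Pilra (mean 1.67, SD 1.07) had the largest mean differences, with all 4 wild-type-labelled values of Pilra and 2 of Lair1 at the floor.

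Of 16 signalling genes and phosphatases below the receptors, limma called none at 4, 8 or 24 h. Of all genes 0.804%, 1.18% and 1.49% were called higher and 0.627%, 1.25% and 2.48% lower. At an unadjusted p under 0.05, 1, 0 and 0 of the 16 were higher (5.51%, 7.27% and 7.67% of all genes). By the same rule 1, 1 and 1 were lower (8.87%, 12.9% and 14.2%). The gene lower at 4 and 8 h was Pdk1, at -1.56 and -1.26. It encodes a pyruvate dehydrogenase kinase, a metabolic enzyme, and does not belong below the receptors. The median change of the 16 was -0.10, -0.24 and -0.19. The kinase Prkcq, which acts below CD28, differed between genotypes by a mean of -1.51 (SD over the 4 times 0.76), and the kinase subunit Pik3cg by 1.37 (SD 0.60). Of 17 factors linked to NFAT, Tox and exhaustion, limma called 3, 4 and 2 higher at 4, 8 and 24 h (0.804%, 1.18% and 1.49% of all genes). None was called lower (0.627%, 1.25% and 2.48%), with 1, 2 and 1 lower at an unadjusted p under 0.05 (8.87%, 12.9% and 14.2%). At 4 h Irf4 rose by 4.64, Nr4a2 by 4.16 and Nr4a1 by 3.74, with limma adjusted p from 0.0156 to 0.0311. At 24 h Irf4 rose by 4.58 and Batf, an AP-1 factor, by 1.45. The list's median was 0.73, 0.78 and 0.32. Between genotypes 3, 10, 9 and 0 of the 17 were lower by 2-fold or more at 0, 4, 8 and 24 h and 0, 1, 1 and 2 were higher by that much, against the same shares of all genes as for the costimulatory list. Lef1 (mean -1.87, SD over the 4 times 0.71) and Bach2 (mean -1.33, SD 0.96), both factors of naive T cells, had the largest mean differences.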

How the data were processed

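Per the labels, biotin-labelled cRNA from total RNA was hybridised to Affymetrix arrays. The deposited values are signal intensity, for which the submitters' processing notes name GCOS 1.4 and MAS5 without saying what each did. The 2% trimmed mean of every array was 1000.4 to 1000.5. All sample columns were used (0 unused). Signals under 141.88 (log2 7.15), the median over arrays of the 40th percentile, were set to that floor, and log2 was taken. Of 22690 probe sets 64 were controls. Testing kept the 15062 that exceeded it on 2 or more arrays, and the probe set of highest mean stood for its gene (8457 genes). Of the probe sets 20380 had 1 gene symbol, 691 several and 1555 none; 20351 matched the RefSeq gene table (0 symbols updated).

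Stimulation was tested with limma 3.58.1 (R 4.3.3): a model of time plus genotype, eBayes with a variance trend, Benjamini-Hochberg over all tested probe sets, called at adjusted p under 0.05 and at least 2-fold, on 3 residual degrees of freedom. Its p-values weigh the shared change by how far the genotypes' changes disagree and measure no spread between animals. The number of arrays limits the precision. Genotype was compared by size, at least 2-fold, and response at least 4-fold. Genes named are the 8 members and, in each gene list, the called genes with the largest change (up to 3 a direction). Also named are the 2 of each list with the largest mean genotype difference, the 3 most alike in course, and single markers. Tox4, Il2ra, Gpr83, Izumo1r and the NK list sums and counts were added for context after their values were seen. The members and lists were chosen with earlier results of these data known. The fit was tested on simulated data. Alternatives were other scalings, floors, filters, models and probe-set rules, and leaving out arrays. Tables were made with python 3.11.15, numpy 2.4.6, pandas 2.3.3 and matplotlib 3.10.9.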

Additional observations from a re-analysis of the deposited data

Results flagged for a closer look

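The items here went opposite ways in the 2 genotypes, with 1 array per genotype and time, so that the difference between genotypes was not tested. Values are the knockout-labelled log2 change less the wild-type-labelled one.

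Cd28 differed by 0.37 at 8 h and 1.98 at 24 h against 0 h and by 1.82 at 24 h against 4 h; its wild-type-labelled changes were -0.10, -0.08 and -0.10. Its second probe set went down in both genotypes at 8 h, with a difference of -0.29. From 4 to 24 h Icos differed by 2.65 and Ctla4 by 3.42, each higher at 24 h in the knockout-labelled and lower in the wild-type-labelled arrays. Over the same interval Pdcd1 differed by 1.23, from changes of 0.14 (knockout-labelled) and -1.09 (wild-type-labelled). Against 0 h Havcr2 differed by 1.36 at 4 h, 1.69 at 8 h and 2.38 at 24 h. Its wild-type-labelled values at 4 and 8 h were at the floor. Cd160 differed by 1.28 at 24 h against 0 h, with a change of -0.12 in the wild-type-labelled arrays.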

How the results depend on the processing

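Counts are of the 8 genes called. At 4 h against 0 h (main count 0) the count was 1, Pdcd1, with arrays scaled to equal medians or a gene's probe sets summarised by their median, and 0 to 2 when 1 array was left out. At 8 h (main count 1) it was 0 with no filter, with the floor at the 60th percentile and with no genotype term, and 0 to 4 when 1 array was left out. At 24 h (main count 1) it was 0 with no filter, 2 with arrays scaled to equal medians, and 0 to 5 when 1 array was left out. From 4 to 24 h (main count 1) it was 0 with no filter, quantile normalization, the floor at the 60th percentile, no genotype term or no variance trend, and 0 to 1 when 1 array was left out. The Lag3 change at 24 h was 2.07 to 4.10 over all alternatives, with limma adjusted p from 0.00371 to 0.138.

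For genotype at all 4 times (main count 0) the count was 1 with probe sets summarised by their median (Tox), relative to the T cell markers (Havcr2) and at 1.5-fold (Tox), and 0 to 1 when a time was left out. For response (main count 3) it was 0 relative to the T cell markers, 1 at 6-fold (Ctla4), and 0 to 3 when a time was left out. It was 4, with Cd28, under quantile normalization or at 3-fold, and 2, without Havcr2, with the floor at the 60th percentile or log2 of the signal plus the floor. The cause of these differences was not tested. The genotype term already compares times within each genotype. Between genotypes, no paired analysis was possible because each group has 1 array. Signals near the floor limit Lag3 at 0 h, Havcr2 at 4 and 8 h and Tox at 24 h. The 24 h difference of the first Tox probe set, -1.19, was -0.77 with log2 of the signal plus the floor. With the floor at the 60th percentile it was 0, as both values were then at the floor.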

Other observations

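The values in this paragraph were chosen after they were seen. Lag3 lies beside Cd4 on chromosome 6 in the GRCm38.p6 annotation, and the neighbours took different courses in the wild-type-labelled arrays. Cd4 gave 637, 239, 340 and 860 in the knockout-labelled arrays and 2195, 989, 728 and 1432 in the wild-type-labelled ones. In wild type it was lower at 24 h than at 0 h, whereas Lag3 was highest at 24 h. Under the knockout label both genes were highest at 24 h. The CD28 and CTLA-4 ligands Cd80 and Cd86 were higher in the knockout-labelled array at 24 h, at 543 against 193 and 1054 against 333. The ICOS ligand gene Icosl gave 762 in the knockout-labelled 4 h array against 235, and was under the floor in both 24 h arrays. Monocyte markers were higher in the same knockout-labelled arrays, and their part in these values was not tested.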
